A study of Saccharomyces cerevisiae with 3 samples.

Results

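The genes described here encode the DNA replication machinery of budding yeast (Saccharomyces cerevisiae): 45 genes listed by function, out of 6002 nuclear protein-coding genes. All 45 were found by symbol or synonym in the RefSeq R64 gene table, on 14 chromosomes. The study measured 2 histone marks by chromatin immunoprecipitation and sequencing, dimethylation (H3K4me2) and trimethylation (H3K4me3) of histone H3 at lysine 4. Cells of the strain BY4741, in mid-log growth in the rich glucose medium YEPD, were fixed with formaldehyde and their chromatin was cut with micrococcal nuclease, an enzyme that cuts between nucleosomes. There are 3 samples, 1 library for each mark and 1 input library made without antibody, and each mark has 1 list of enriched regions (peaks). All share the strain and medium, and no other allele or agent is given in the labels. With 1 library per mark, no difference described here has a replicate check.

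Replication begins at origins. In G1 the origin recognition complex (ORC), with Cdc6 and Cdt1, loads the ring-shaped Mcm2-7 helicase onto DNA, a step called licensing. At the start of S phase the kinase Cdc7-Dbf4 and the factors Sld3, Sld2 and Dpb11 help to join Cdc45 and the GINS complex to the helicase, forming the active CMG helicase. Polymerase alpha-primase then makes primers, polymerases epsilon and delta extend them, the clamp PCNA and its loader RFC hold the polymerases on DNA, and RPA covers single strands. Many of these genes are transcribed periodically around G1 and S phase. H3K4 methylation is placed by the Set1 enzyme during transcription, with trimethylation typically near gene starts and dimethylation further inside.

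There were 2998 peaks in the H3K4me2 list, containing 1492318 tags, and 3714 in the H3K4me3 list, containing 1644589 tags. The number of tags in a peak is the authors' count of sequenced fragments, and the fold is the authors' enrichment of a peak. The sequencing depth of the libraries is unknown, since the lists give tags within peaks alone. Intervals below are exact (Clopper-Pearson) 95% intervals that cover counting error only. A gene start was called marked if 50% or more of the 500 bp that follow the start codon lay under peaks (of the whole gene where it is shorter). As a check of the strain, LEU2, URA3 and MET15, which BY4741 lacks, had no base under either mark. The a-cell genes STE2 and STE6 carried both marks, and the alpha-cell gene STE3 carried neither. Over all genes 38.4% of starts carried both marks and 30.3% neither, so these few genes alone cannot identify the strain.

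Most replication genes carried H3K4me3 at their start. H3K4me3 marked 36 of 45 starts (80%, interval 65.4 to 90.4), and over all genes the share was 64.6%. H3K4me2 marked 22 of 45 starts (48.9%, 33.7 to 64.2), beside 43.5% over all genes. Both marks lay over 21 starts (46.7%, all genes 38.4%) and H3K4me3 alone over 15 (33.3%, all genes 26.2%). H3K4me2 alone lay over 1 (2.22%, all genes 5.1%) and neither over 8 (17.8%, all genes 30.3%). The replication genes were longer than genes in general, with a median of 1590 bp against 1200 bp. Marking varied with length across the genome without a steady trend: H3K4me3 lay at 57.4% of genes under 1000 bp, 68.6% from 1000 to under 1500 bp, 71.1% from 1500 to under 3000 bp and 66.8% above. Among genes of at least 1500 bp, 22 of 26 replication genes had H3K4me3 (84.6%; all such genes 70.1%) and 14 had H3K4me2 (53.8%; 50.7%). Among shorter genes, 14 of 19 had H3K4me3 (73.7%; 61.4%) and 8 had H3K4me2 (42.1%; 39.2%).

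The peaks over these starts were of modest strength for their lists. The start peak, the peak over most of the start window, had a median H3K4me3 fold of 2.86 in the 36 marked replication genes (range 2.27 to 4.23), against 3.12 over all 3880 marked starts. Of the 36 peaks, 9 (25%) lay above the median fold of the whole list, 3.09, as did 52.4% of the start peaks of all marked genes. For H3K4me2 the median fold was 2.42 in 22 replication genes (range 2.04 to 3.16) and 2.66 over 2613 marked starts, and 8 of the 22 lay above the list's median of 2.64 (36.4%; all marked starts 51.6%). Tags per kb of peak showed the same order, with medians of 381 against 410 for H3K4me3 and 395 against 430 for H3K4me2. Scores under 100 were more frequent than over all marked starts. They were found for 9 of the 36 H3K4me3 peaks (25%, all marked starts 14.9%) and 9 of the 22 H3K4me2 peaks (40.9%, all marked starts 23.3%). Leaving out weaker peaks changed the comparison with all genes. With peaks below their list's median fold left out, H3K4me3 lay over 10 starts (22.2%), below the 34.5% of all genes. With a score of at least 100, H3K4me3 lay over 27 starts (60%; all genes 55%) and H3K4me2 over 13 (28.9%), below the 33.4% of all genes.

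**Figure D1:**
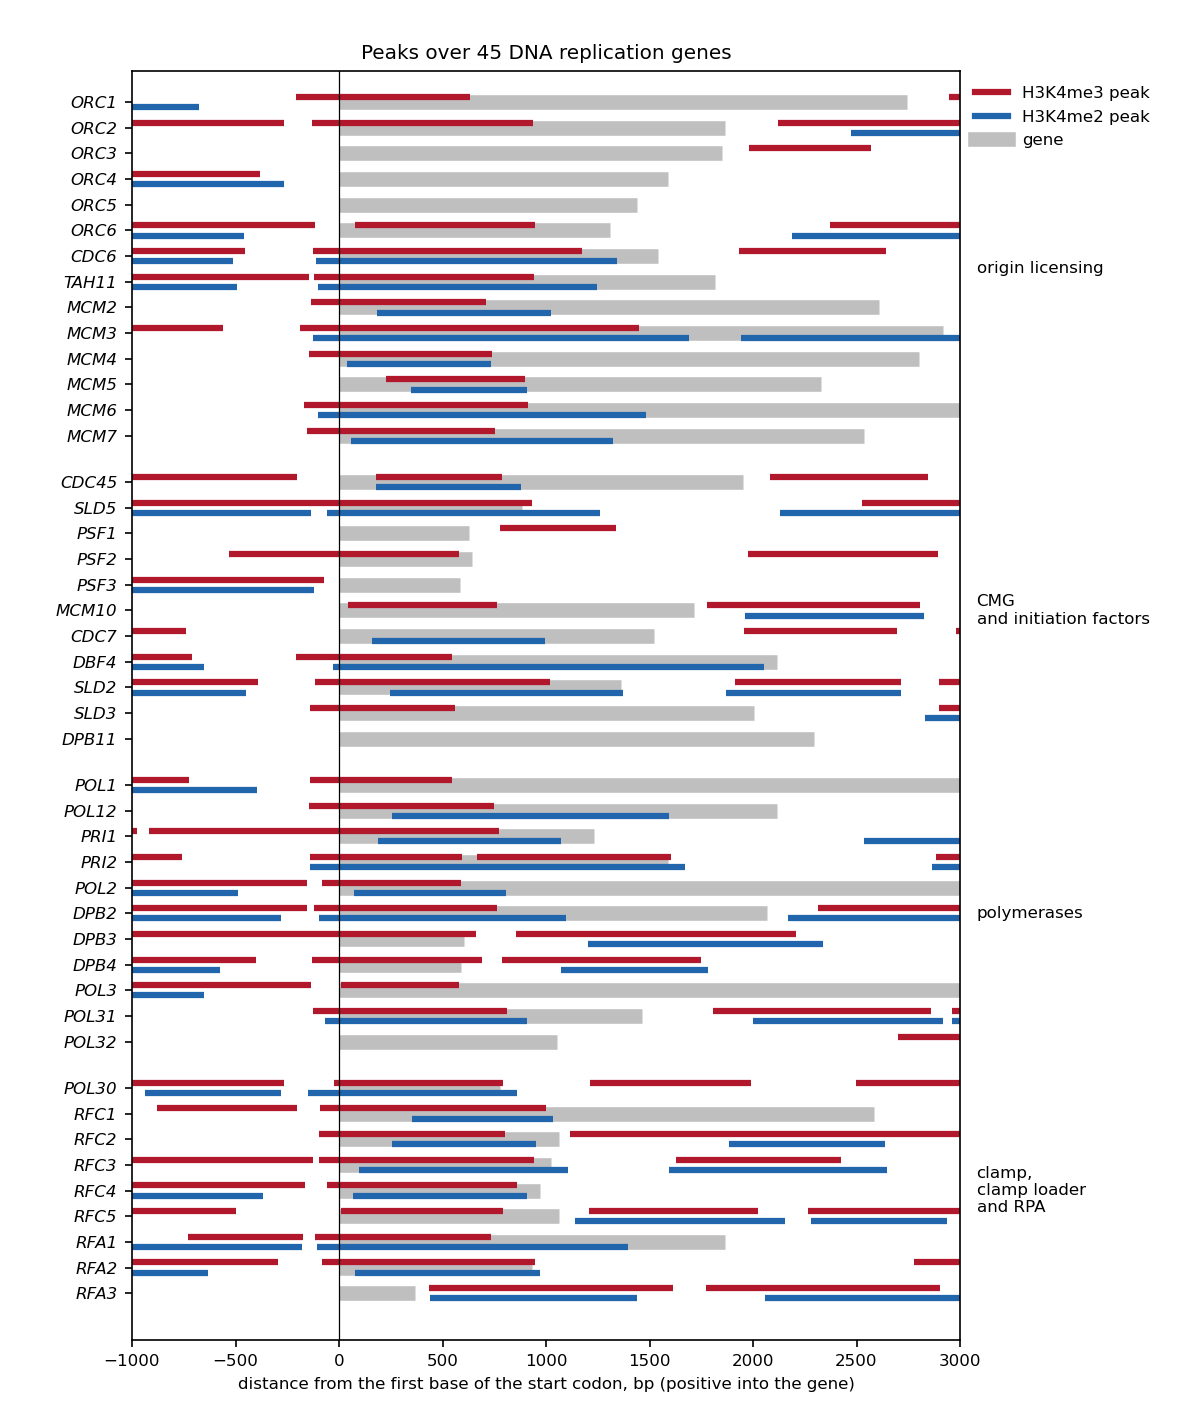
Peaks of H3K4me3 (red) and H3K4me2 (blue) over the 45 genes, drawn to scale from 1000 bp before to 3000 bp after the start codon; grey bars are the genes, those longer than 3000 bp being cut off at the right edge. Among 6 ORC genes 3 have H3K4me3 and 0 have H3K4me2 anywhere in the gene, while all 6 of MCM2 to MCM7 have both marks somewhere in the gene. Of all 6002 genes, 3990 have H3K4me3, 3094 have H3K4me2 and 2727 have both somewhere in the gene.

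By role, with 64.6% of all genes as background, H3K4me3 marked 11 of 14 origin licensing genes (78.6%, interval 49.2 to 95.3) and 7 of 11 CMG and initiation factor genes (63.6%, 30.8 to 89.1). It marked 10 of 11 polymerase subunit genes (90.9%, 58.7 to 99.8) and 8 of 9 genes of the clamp, clamp loader and RPA (88.9%, 51.8 to 99.7). The CMG share lay near that of all genes, and the H3K4me3 interval of every group includes the 64.6% of all genes. H3K4me2 marked 7 of 14, 5 of 11, 5 of 11 and 5 of 9 genes in the same order (50, 45.5, 45.5 and 55.6%), shares whose intervals all include the 43.5% of all genes. The intervals of the groups overlap widely, and no test between the groups was made. The groups also differ in gene length, from a median of 1023 bp in the clamp, loader and RPA group to 2095.5 bp in the licensing group.

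**Figure D2:**
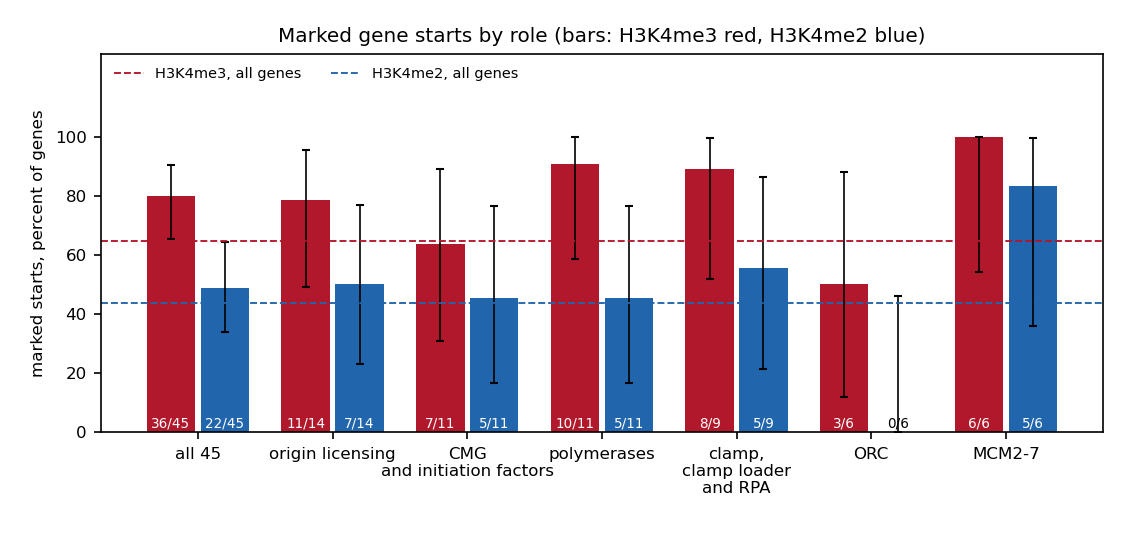
Share of marked starts (percent of genes; red H3K4me3, blue H3K4me2) for all 45 genes, for the 4 role groups and for 2 complexes within the licensing group; error bars are exact 95% binomial intervals and dashed lines the shares over all 6002 genes. Polymerase genes have H3K4me3 at 10 of 11 starts, and ORC genes have H3K4me2 at 0 of 6.

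Within licensing, the genes of the loader and those of the helicase it loads had these counts, beside shares over all genes of 64.6% for H3K4me3 and 43.5% for H3K4me2. Of the 6 ORC genes, H3K4me3 marked 3 (50%, 11.8 to 88.2) and H3K4me2 marked 0, for which the exact interval ends at 45.9% and the looser limit of 3 counts allows a share of up to 50%. No base of any ORC gene lay under H3K4me2, while 3094 of all 6002 genes had some base under it. Of the 6 helicase genes MCM2 to MCM7, H3K4me3 marked all 6 (interval from 54.1) and H3K4me2 marked 5 (83.3%, 35.9 to 99.6). The intervals of the 2 complexes overlapped for both marks, and no test between them was made. The count of H3K4me2 starts in the MCM genes ran from 2 to 6 under the 9 alternative settings. Without peaks below the median fold, H3K4me3 lay at 0 ORC starts and 3 MCM starts, beside 34.5% of all genes. CDC6 and TAH11, which encodes Cdt1, carried both marks over 100% of the start window.

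ORC1, ORC2 and ORC6 were the marked ORC genes. ORC1 (YML065W, chromosome XIII, 142210 to 144954, plus strand), the largest subunit and an ATPase, had an H3K4me3 peak of 2.64-fold with 267 tags. That peak ran from 209 bp before to 635 bp after the start codon and covered 23.2% of the gene. ORC2 (YBR060C, chromosome II, 360652 to 362514, minus strand) had a peak of 2.75-fold with 367 tags, and ORC6 (YHR118C) one of 2.98-fold with 362 tags that began 76 bp inside the gene. All 3 folds lay below the median of the H3K4me3 list. ORC6 lies 414 bp from the divergent gene SET1, which encodes the H3K4 methyltransferase, and an H3K4me2 peak there ended 457 bp before the ORC6 start codon.

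ORC3, ORC4 and ORC5 had no base under either mark. The H3K4me3 peak nearest to the ORC3 start codon (YLL004W, chromosome XII, 141073 to 142923) lay 1982 bp downstream, mostly over the next gene, SFI1. For ORC4 (YPR162C, chromosome XVI, 866715 to 868304) it lay 382 bp upstream over the neighbour TIF3, at 3.63-fold with 743 tags. ORC5 (YNL261W, chromosome XIV, 155100 to 156539) begins 219 bp after the end of POL2 on the same strand, and its nearest H3K4me3 peak lay 4678 bp downstream, over DSL1. POL2 and ORC5 thus formed a stretch with peaks at the POL2 start alone.

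The MCM genes encode the 6 related ATPases of the helicase ring. MCM4 (YPR019W, chromosome XVI, 596750 to 599551) had the highest H3K4me3 fold of the licensing group, 3.53 with 369 tags, and CDC6 (YJL194W, chromosome X, 69338 to 70879) followed with 3.35 and 609 tags. The H3K4me2 peak of MCM4 was weak, 2.23-fold with 259 tags and a score of 50.6, close to the lowest score in its list, 50.02. MCM6 had 3.22-fold H3K4me3 with 416 tags and 3.01-fold H3K4me2 with 672 tags. MCM7 had 2.94-fold H3K4me3 with 390 tags and 2.43-fold H3K4me2 with 546 tags. MCM2 had 2.73-fold H3K4me3 with 313 tags and 2.77-fold H3K4me2 with 295 tags. MCM5 (YLR274W, chromosome XII, 691555 to 693882) stood lowest in the group, and its H3K4me3 summit, at 640 bp, lay furthest inside the gene. Its H3K4me3 peak (2.38-fold, 228 tags) ran from 227 to 899 bp after the start codon and covered 54.6% of the window, just above the limit. Its H3K4me2 peak (2.16-fold, 211 tags) covered 30.4%, below it.

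MCM3 (YEL032W, chromosome V, 86937 to 89852) was the most widely covered helicase gene. Its H3K4me3 peak spanned 1639 bp with 785 tags (3.16-fold), the most tags of any H3K4me3 peak over a replication gene start. H3K4me2 covered 91.3% of the gene with 1 peak over the first 1690 bp (2.90-fold, 887 tags) and a second that began 1944 bp into the gene and passed its end. TAH11 (YJR046W) had the highest H3K4me2 fold of all 45 genes, 3.16 with 662 tags, beside H3K4me3 at 3.09-fold with 466 tags.

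Among the CMG and initiation factors, the kinase pair CDC7 and DBF4 both carried H3K4me2 at the start and differed in H3K4me3. CDC7 (YDL017W, chromosome IV, 424209 to 425732), the catalytic subunit, was the 1 replication gene with H3K4me2 alone (2.2% of 45; all genes 5.1%). Its H3K4me2 peak ran from 158 to 997 bp after the start codon, at 2.37-fold with 287 tags and a score of 64.3, and no base of the gene lay under H3K4me3. The nearest H3K4me3 peak ended 740 bp upstream, over the divergent gene ERP3. DBF4 (YDR052C, chromosome IV, 558511 to 560625), the regulatory subunit, had the H3K4me3 start peak of highest fold among the 45 genes, 4.23. Its fold was higher than or equal to that of 99.4% of the peaks in the list, while its 339 tags were below the list's median of 391. That peak ended 548 bp into the gene, whereas a single H3K4me2 peak of 2085 bp (2.35-fold, 780 tags) ran to 2055 bp and covered 97.2% of it.

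The GINS genes encode the 4 small subunits of that complex, and all are shorter than 1000 bp. H3K4me3 marked 2 of the 4 starts (50%, interval 6.76 to 93.2), beside 57.4% of all genes under 1000 bp. H3K4me2 marked 1 (25%, 0.631 to 80.6), beside 30.7% of those genes. Neither mark lay over 2 (50%), beside 37.9%, and every interval includes the background share. SLD5 (YDR489W) carried both marks over its whole length and PSF2 (YJL072C) carried H3K4me3 alone. PSF1 (YDR013W, chromosome IV, 473157 to 473783) and PSF3 (YOL146W, chromosome XV, 48864 to 49448) had no base under either. The SLD5 peak (3.05-fold, 741 tags) also marked the start of the divergent gene PAC11, and the PSF2 peak (2.69-fold, 402 tags) that of ARG2. Their summits lay 271 and 232 bp upstream of the SLD5 and PSF2 start codons, so these tags are not those of the GINS genes alone. Next to PSF3, an H3K4me3 peak over the divergent gene PEX11 (3.62-fold, 456 tags) ended 71 bp before the start codon. Next to PSF1, a peak over RAD61 (3.13-fold, 187 tags) began 779 bp from it, beyond the end of PSF1.

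CDC45 carried both marks over 64.4% of its window, with H3K4me3 at 2.75-fold (228 tags) and H3K4me2 at 2.38-fold (270 tags). SLD2 had H3K4me3 at 2.98-fold (435 tags), and its H3K4me2 peak covered 50.6% of the window, just above the limit. MCM10, a helicase-binding factor, had H3K4me3 alone at 2.27-fold with 237 tags, the lowest fold among the 36 marked starts. SLD3 had H3K4me3 alone at 2.47-fold with 246 tags. DPB11 (YJL090C, chromosome X, 262757 to 265051), a scaffold protein that binds Sld2 and Sld3, was the longest replication gene with neither mark. Its nearest H3K4me3 peak lay 7177 bp from the start codon, over SRS2, the largest such distance among the 45 genes.

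The polymerase genes mostly carried H3K4me3 in a narrow range of fold. Of the 10 marked, 7 lay between 2.76 and 2.90-fold. POL31, a small subunit of polymerase delta, was highest at 3.27-fold with 397 tags and carried both marks. PRI1, the catalytic primase subunit, followed at 3.20-fold with 726 tags, in a peak shared with the divergent gene MSL1. The summit of that peak lay 464 bp upstream of the PRI1 start codon, so its tags are not those of PRI1 alone. POL3 (YDL102W, chromosome IV, 276872 to 280165), the catalytic subunit of polymerase delta, was lowest at 2.31-fold with 190 tags and a score of 52.7. POL12 (2.76-fold, 324 tags) came next. POL32 (YJR043C, chromosome X, 516461 to 517513), the third subunit of polymerase delta, was the exception with neither mark.

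The catalytic subunits of the 3 replicative polymerases, POL1, POL2 and POL3, are the longest of the 45 genes, up to 6669 bp. All had H3K4me3 over the start that ended 545 to 589 bp into the gene. POL2 alone of them had H3K4me2, in the H3K4me2 peak of lowest fold over any marked replication gene start (2.04-fold, 264 tags, ending at 806 bp). The histone-fold subunits of polymerase epsilon, DPB3 and DPB4, are short genes and had H3K4me3 over 100% of the gene and no H3K4me2. The DPB3 peak (2.85-fold, 699 tags) also marked the divergent gene PPS1 and had its summit 375 bp upstream of DPB3. DPB2 carried both marks. PRI2, the large primase subunit, had H3K4me2 over its whole length (2.90-fold, 916 tags) and a pair of H3K4me3 peaks that together covered 95.6% of it. POL12 just missed the H3K4me2 call, with 49.2% of the window under a peak of 2.47-fold and 562 tags.

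All 5 clamp loader genes, RFC1 to RFC5, had H3K4me3 at the start (interval from 47.8, all genes 64.6%). RFC1 (YOR217W, chromosome XV, 749301 to 751886) and RFC3 (YNL290W, chromosome XIV, 86218 to 87240) were highest of the group, both at 3.11-fold, with 415 and 467 tags. RFC3 and RFC4 carried H3K4me2 as well. RFC1 and RFC2 had H3K4me2 over 29.0 and 48.6% of the window, below the limit, and RFC5 had none. The lowest folds of the group were those of POL30, which encodes PCNA, at 2.48 with 308 tags, and RFC2, at 2.49 with 329 tags. POL30 (YBR088C, chromosome II, 424990 to 425766) and RFC5 (YBR087W, chromosome II, 423765 to 424829) are neighbours that end 160 bp apart. POL30 was covered by both marks over its whole length, and its H3K4me2 peak (2.30-fold, 359 tags) was the H3K4me2 peak nearest to RFC5. It did not reach into the RFC5 gene.

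The RPA genes encode the 3 subunits of the single-strand binding protein. RFA1 had H3K4me3 at 2.87-fold (345 tags) and H3K4me2 at 2.52-fold (608 tags). RFA2 had H3K4me3 at 2.99-fold (404 tags) and H3K4me2 at 2.32-fold (363 tags). RFA3 (YJL173C, chromosome X, 96161 to 96529), at 369 bp the shortest of the 45 genes, had neither mark. Peaks of both marks over the convergent gene KRE9 began 437 and 438 bp from the RFA3 start codon, beyond the end of the gene.

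**Figure D3:**
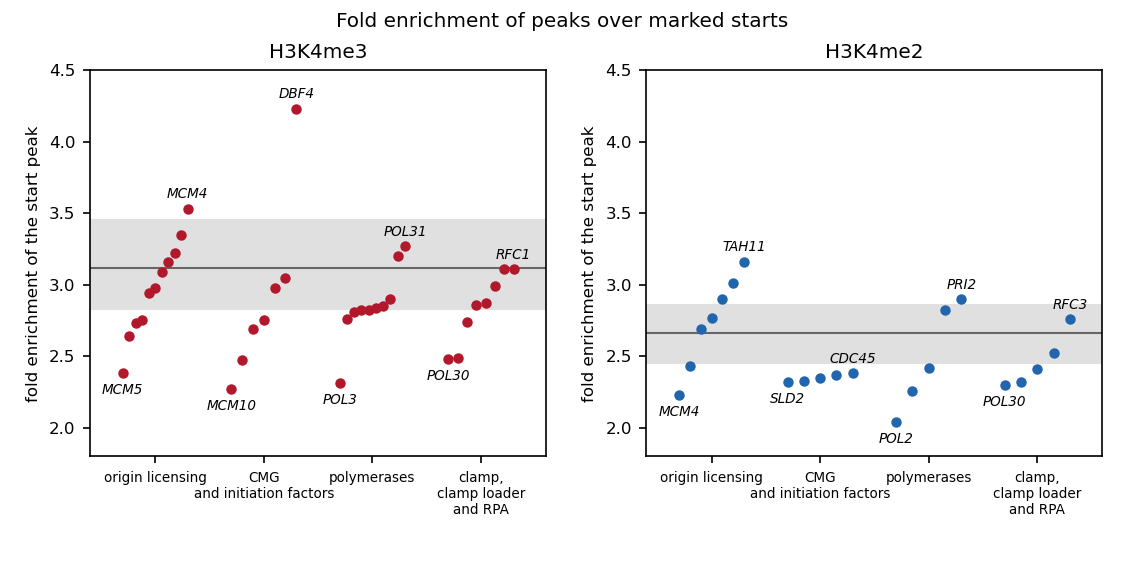
Fold enrichment of the start peak (linear axis that begins at 1.8) for each marked replication gene, by role, with the lowest and highest gene of each group named; points are genes in rising order, and the grey line and band are the median and quartiles over all marked starts in the genome. For H3K4me3, DBF4 at 4.23-fold stands above the rest. The grey line for H3K4me3 is at 3.12. The list's median of 3.09, which 9 of 36 peaks exceed, is not drawn.

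The 8 genes with neither mark were ORC3, ORC4, ORC5, PSF1, PSF3, DPB11, POL32 and RFA3, from 369 to 2295 bp long. Among genes under 1000 bp, 3 of 10 replication genes had neither mark, beside 37.9% of all such genes, and among those from 1500 to under 3000 bp 3 of 22 had neither, beside 23.6%. With CDC7 they make the 9 genes without H3K4me3, and none of these 9 had an H3K4me3 peak over any base of the gene. Of all 6002 genes, 3990 had some base under H3K4me3 and 3880 were marked by it at the start. All 4 genes of 3000 bp or more had H3K4me3 (interval from 39.8, all genes of that length 66.8%). A missing peak shows only that the caller listed no enrichment there. By role, neither mark lay over 3 of 14 licensing, 3 of 11 CMG, 1 of 11 polymerase and 1 of 9 clamp, loader and RPA genes. Over all genes the share with neither mark was 30.3%.

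The order of the marks along the replication genes resembled that of genes in general. Among the 35 replication genes that reach 1000 bp, H3K4me3 coverage was highest from 230 to 540 bp after the start codon, at 82.9% of genes, and over the 3592 genes of that length it peaked at 290 bp with 69.6%. H3K4me2 was most frequent from 360 to 730 bp, at 62.9%, and over all genes at 570 bp with 60.9%. At 1000 bp H3K4me3 covered 5 of the 35 (14.3%, interval 4.81 to 30.3, which includes the 25.9% of all genes). H3K4me2 covered 15 there (42.9%, 26.3 to 60.6; all genes 49.5%). The start peak of H3K4me3 ended at a median of 780 bp after the start codon in replication genes and 844 bp over all marked starts. At the start codon itself, 30 of 45 genes lay under H3K4me3 (66.7%; all genes 59.6%) and 11 under H3K4me2 (24.4%; 20.3%).

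**Figure D4:**
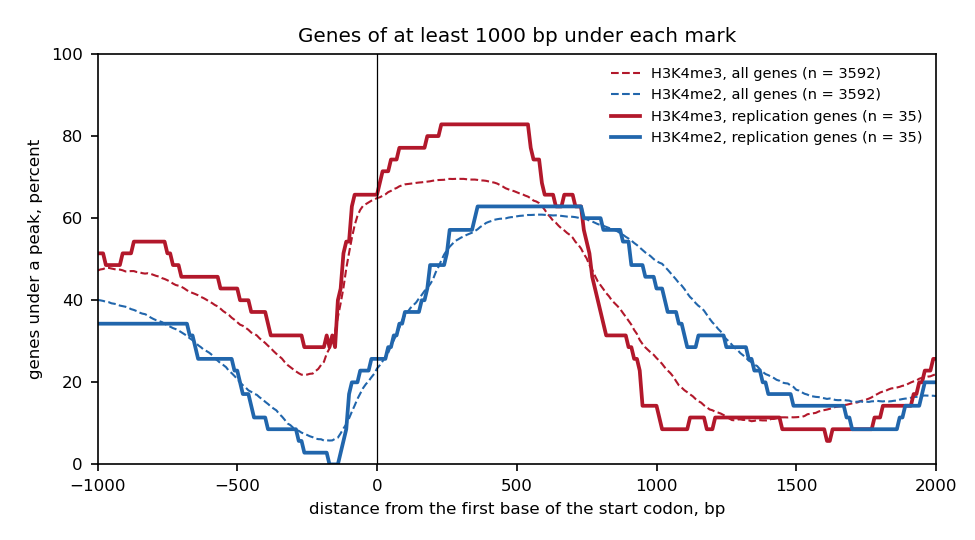
Percent of genes of at least 1000 bp under a peak by distance from the start codon (bp), for replication genes (solid, n = 35) and all genes (dashed, n = 3592); red is H3K4me3 and blue H3K4me2. The H3K4me3 line of the replication genes lies above the dashed one at its maximum (82.9 against 69.6%) and below it at 1000 bp (14.3 against 25.9%).

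Within single genes, H3K4me2 lay downstream of H3K4me3. Of the 25 replication genes with both marks somewhere in the gene, the centre of the H3K4me2-covered bases was further from the start codon than that of H3K4me3 in 22 (88%; all genes 87.1%). The centres coincided in SLD5 and POL30, which both marks cover whole, and in PRI2 the distance from the H3K4me3 to the H3K4me2 centre was -7.45 bp. The median distance was 154 bp (quartiles 46.5 and 286) and 127 bp over all 2727 such genes. It depended on the peaks kept: with a score of at least 100 it was 286 bp in 13 genes (all genes 125 bp), and with peaks of 500 bp about the summit 317 bp in 23 genes (all genes 273.8 bp). DBF4 (753.5 bp), MCM3 (699 bp) and POL12 (550 bp) had the widest separation, and MCM4 (17 bp) a narrow one. In 20 of the 21 genes with both marks at the start, the H3K4me2 summit lay downstream of the H3K4me3 summit, by a median of 328 bp over the 21. The exception was POL2, with summits at 201 bp for H3K4me2 and 329 bp for H3K4me3. The order of summits within genes was not counted over all genes. Over all marked starts the median summit lay at 294.5 bp for H3K4me3 and 564 bp for H3K4me2. Over the marked replication genes it lay at 260.5 and 643 bp.

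Marks seldom reached the ends of long replication genes. Among 26 genes of at least 1500 bp, H3K4me2 covered at least 50% of the last 500 bp in 4 (15.4%; all such genes 17.2%) and H3K4me3 in 1 (3.85%; 5.03%). The 4 were CDC6 (60.4% of the last 500 bp), DBF4 (88.2%), MCM3 and PRI2 (both 100%), and PRI2 was the 1 with H3K4me3. Over the whole gene, H3K4me3 covered at least 50% in 18 of 45 genes (40%; all genes 44%) and H3K4me2 in 19 (42.2%; 39.6%).

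Sharing of start peaks with neighbouring genes lay near the genome share for H3K4me3. Of the 36 H3K4me3 start peaks, 4 (11.1%; all starts marked by 1 peak 13.9%) also marked that of a divergent neighbour, at SLD5, PSF2, PRI1 and DPB3. Of the 22 H3K4me2 start peaks 0 marked a second start (all genes 7.46%), and no peak marked a pair of replication genes. With a divergent neighbour upstream, 24 of 29 genes had H3K4me3 (82.8%; all such genes 66.4%), and with a tandem one 12 of 16 did (75%; 62.9%). H3K4me2 marked 15 of 29 (51.7%; 44.3%) and 7 of 16 (43.8%; 42.8%).

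Other genes linked to replication, among them 3 G1/S transcription factor genes, were compared as a list of 33. H3K4me3 marked 24 of them (72.7%, interval 54.5 to 86.7), and over all genes the share was 64.6%. H3K4me2 marked 20 (60.6%, 42.1 to 77.1), beside 43.5% over all genes. Both intervals include the share of all genes. Beside the 45 genes, H3K4me3 was listed somewhat less often and H3K4me2 more often, with overlapping intervals and no test. Their H3K4me3 start peaks had a median fold of 3.13 and their H3K4me2 peaks one of 2.6, close to the medians over all marked starts. Without H3K4me3 were CSM3, CTF8, DNA2, TOP2, PIF1, RNR1, RNR3, SWI4 and RLF2. Of these, CSM3 of the fork protection complex (2.64-fold), RNR1 (2.40-fold) and the G1/S transcription factor gene SWI4 (2.72-fold) carried H3K4me2 alone. RNR1, the large subunit of ribonucleotide reductase, had H3K4me2 over 100% of its window, while RNR3, its isoform known for induction by DNA damage, had neither mark. RLF2, a chromatin assembly factor subunit 453 bp upstream of MCM4 on the same strand, had neither mark as well. Of the 7 genes of nucleotide supply 5 carried H3K4me3 and 5 carried H3K4me2, and of the 6 chromatin assembly genes 5 and 4 did.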

How the data were processed

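Per the submitters' processing notes, the peak caller MACS 1.4.2 and CASAVA 1.8.2 were run on build sacCer3. The aligner, settings and control are not stated there. The authors deposited 1 peak list per library. Per the file headers it gives a tag count, a fold (a ratio over an unnamed background) and a p-value column. The latter was read as a score, -10 times log10 of p, since all deposited values exceed 50. The authors' fold and score describe peaks within a list only.

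Gene spans came from RefSeq R64, the assembly of sacCer3, and hold no untranslated regions. Strand came from the systematic name. Coverage was computed with scipy 1.17.1, pandas 2.3.3, numpy 2.4.6 and Python 3.11.15, and the functions were tested on simulated peaks. No test was run. The members, roles, lists and alternatives were chosen with earlier results of these data known. Named genes were those without H3K4me3, with H3K4me2 alone, with the 2 highest or lowest H3K4me3 folds of a role, with marked ends, or with 40 to 60% coverage. Other members were named to account for all. Sequences were not analysed here.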

Additional observations from a re-analysis of the deposited data

How the results depend on the processing

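The 9 alternatives kept H3K4me3 at 26 to 36 of the 45 starts (all genes 51.9 to 65.2%), with an exception. Leaving out peaks below their list's median fold gave 10 (22.2%, all genes 34.5%). No paired analysis was possible because each mark had 1 library and no test was run. The following counts moved by over 1.5 times, and paired shares in parentheses are those of the 45 genes and then of all genes. With that fold limit, H3K4me2 lay at 8 starts (17.8 and 23%) and both marks at 6 (13.3 and 14.1%). H3K4me2 alone lay at 2 (4.44 and 8.95%) and neither at 33 (73.3 and 56.5%). At least 50% of the gene was covered in 5 for H3K4me3 (11.1 and 25.7%) and 6 for H3K4me2 (13.3 and 21.7%). By role, H3K4me3 and H3K4me2 starts were 1 and 0 for CMG and initiation factors and 2 and 1 for the clamp, loader and RPA. They were 2 and 2 for polymerases, and H3K4me3 was at 5 licensing starts. Over all genes the shares of starts with this limit were 34.5% for H3K4me3 and 23% for H3K4me2. With a score of at least 100, H3K4me2 lay at 13 starts (28.9 and 33.4%) and both at 13 (28.9 and 28.4%). H3K4me2 alone lay at 0 (all genes 5.02%) and neither at 18 (40 and 40%). By role, CMG factors had 4 H3K4me3 and 2 H3K4me2 starts, and H3K4me2 was at 3 clamp, loader and RPA starts and 3 polymerase starts. Over all genes the share of H3K4me3 starts was then 55%. With equal numbers of peaks, H3K4me2 alone lay at 3 starts (6.67 and 8.68%) and neither at 16 (35.6 and 37.4%). H3K4me3 then lay at 4 CMG and 6 polymerase starts, beside 53.9% of all genes. With peaks trimmed or widened to 500 bp about the summit, H3K4me2 lay at 4 starts (8.89 and 16.4%). Both marks lay at 3 (6.67 and 12%) and neither at 17 (37.8 and 43.7%). Whole genes were then covered in 2 for H3K4me3 (4.44 and 17.5%) and 3 for H3K4me2 (6.67 and 9.4%). H3K4me3 lay at 4 CMG starts (all genes 51.9%), and H3K4me2 at 1 CMG, 0 clamp, 2 licensing and 1 polymerase start. With at least 25% of the gene covered, the H3K4me3 count over whole genes was 32 (71.1 and 60.4%). With at least 75% it was 11 (24.4 and 31.4%) and that of H3K4me2 was 10 (22.2 and 27.8%). H3K4me2 alone then lay at 0 starts (all genes 4.6%) and H3K4me2 at 2 CMG starts (all genes 32.3%). In the first 300 bp, H3K4me2 alone lay at 0 starts (all genes 4.63%) and H3K4me2 at 2 CMG starts (all genes 34.1%). In a window from 250 bp before to 250 bp after the start codon, H3K4me2 lay at 11 starts (24.4 and 21%). Both marks lay at 11 (24.4 and 16.9%), H3K4me2 alone at 0 (all genes 4.12%) and neither at 13 (28.9 and 35.6%). H3K4me2 was then at 2 CMG, 2 clamp, 4 licensing and 3 polymerase starts. Settings with fewer peaks or a stricter overlap can only lower the counts of starts under H3K4me3 or under H3K4me2, and can only raise the count with neither mark. For the changes of window or peak width the cause was not tested. The median distance between centres was 193.5 to 317 bp under the 4 alternatives that changed the peaks (all genes 108.8 to 273.8 bp).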
